A study of Rattus norvegicus with 48 samples.

Results

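The effect of the CDAA diet on liver gene expression was compared between week 12 and week 4 of feeding. For every gene, the difference between CDAA and CSAA animals at week 4 was subtracted from the same difference at week 12. This diet by week interaction shows whether a diet effect grew, shrank or turned its sign, and the changes on each diet alone show which animals moved. Of 12756 genes tested, 643 passed both thresholds of the interaction (5.04%) and are called interaction genes in the following. The 12756 genes tested are part of 32662 Ensembl identifiers in the deposited table.

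The contrast rests on 32 of the 48 livers of the series, 8 from each diet at weeks 4 and 12, and the 16 livers of week 8 give a time point that the contrast does not use. All animals were male Wistar rats (RjHan:WI), 6 weeks old at the start and housed in pairs. The CDAA animals (spelled CDDA Cholesterol 1pc in the labels) received a diet defined in its L-amino acids and deficient in choline, with 1% cholesterol and 0.17% methionine, with 31% of the energy from fat, 11% from protein and 58% from carbohydrates. The CSAA control diet was choline-supplemented and held 0.4% methionine, with 16% of the energy from fat, 12% from protein and 72% from carbohydrates. The diets therefore differed in choline, methionine, cholesterol and fat at once, and the parts of these components cannot be told apart. Each animal was killed at its own time point, so that the weeks compare different animals, and all animals of a later week were older on both diets. RNA was taken from pieces of whole liver, in which fewer cells of a type and less RNA per cell cannot be told apart.

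Choline is needed to make phosphatidylcholine, a lipid of cell membranes and of the lipoproteins that carry fat out of the liver. Diets without choline are known to lead to fat storage in hepatocytes, followed by cell death, inflammation and the growth of scar tissue by activated stellate cells. Age and the purified diet can change the liver of control animals as well, and each week had its own CSAA group. The tables list genes by Ensembl identifier without names, and 0 of the identifiers could be matched to a name here. Values are therefore given for groups of genes and for 4 identifiers, the marker genes of liver cell types could not be checked, and no statement on pathways is made.

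In the 32 animals of weeks 4 and 12, the reads on genes ranged from 13619274 to 22284359 (median 19514241). All 48 animals entered a single fit of these counts with edgeR, and differences were tested by quasi-likelihood. The TMM factor, which corrects for a few strong genes taking up reads, was between 0.759 and 0.857 on CSAA at week 4, between 0.827 and 1.17 on CDAA at week 4, between 0.717 and 0.862 on CSAA at week 12 and between 1.27 and 1.43 on CDAA at week 12. Animals 303 (CDAA, week 4), 504 (CSAA, week 8), 908 (CSAA, week 12) and 1102 (CDAA, week 12) stand apart from their groups. Across the genes tested, animal 303 had a mean Pearson r (log2 of CPM plus 1) of 0.958 with the other animals of its group and of 0.978 with the CSAA animals of its week, so that it resembled the other diet more than its own. Each of the 4 animals had the lowest mean r with its own group among the 8 animals of that group. All animals were kept, and counts without these 4 animals are given beside the results.

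The diet effect was more positive at week 12 than at week 4 in 287 genes (2.25% of the genes tested) and more negative in 356 genes (2.79%), with an edgeR adjusted p under 0.01 and a log2 interaction of 1 or more in size. With no threshold on the size, 2825 genes (22.1%) passed with edgeR. Of these, 689 (24.4%) were more positive, against positive estimates in 41.9% of all genes tested. The median log2 interaction was 1.46 in the more positive genes and -1.28 in the more negative genes, and -0.10 over all genes tested. The interaction was at least 4-fold (2 on the log2 scale) in 67 of the more positive and 54 of the more negative genes, and at least 8-fold (3 on the log2 scale) in 12 and 26.

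Which direction prevailed depended on the scaling and on the animals. With RLE factors in place of TMM, 381 genes were more positive and 261 more negative, and with scaling to the reads on genes alone the numbers were 918 and 96. With limma-voom they were 337 and 280, with DESeq2 468 and 283, and with the 32 animals of weeks 4 and 12 alone 336 and 259. Without animals 303, 504, 908 and 1102, they were 620 and 257. Animal 908 on its own turned the order, since 469 genes were more positive and 368 more negative without it. Scaling to the reads on genes alone moved the median interaction of all genes from -0.10 to 0.31 on the log2 scale. Taken relative to the median of all genes, 344 genes were more positive and 277 more negative with TMM, and 497 and 169 with the reads on genes alone. A core of 255 genes, 173 more positive and 82 more negative, passed in the same direction in each of these fits, without the low count filter, with the gene length trend removed, with limma-voom quality weights and with each of the 32 animals left out.

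**Figure D1:**
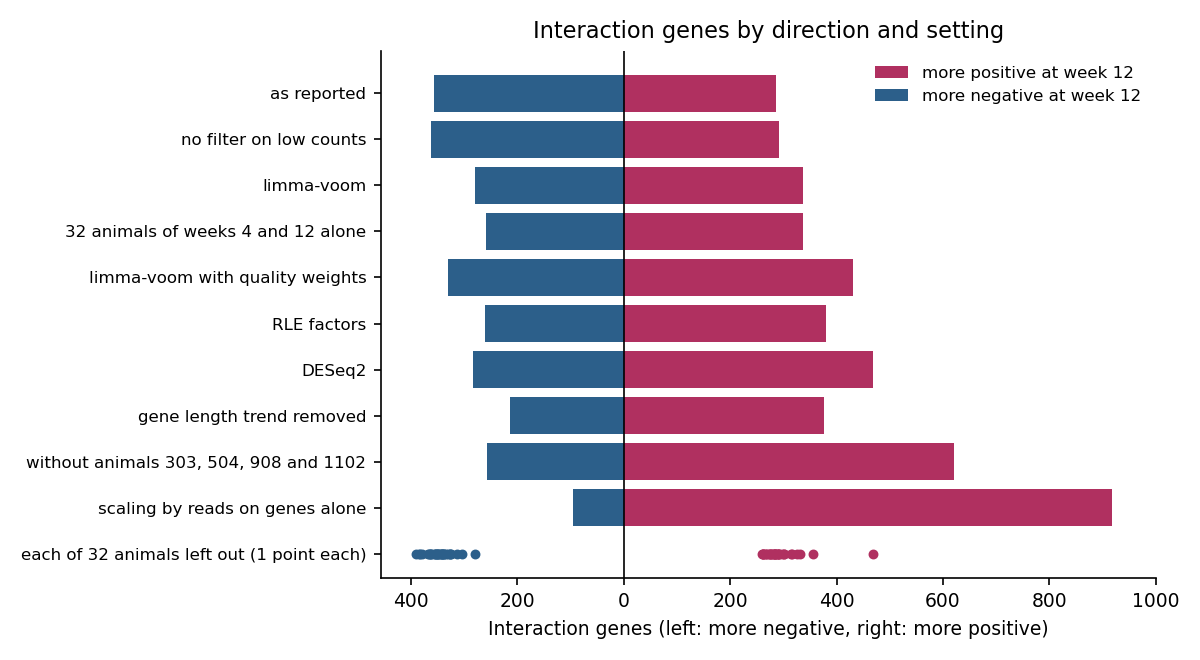
Number of interaction genes (horizontal axis) with a more negative (left, blue) or more positive (right, red) diet effect at week 12 under each setting (rows). In the lowest row each pair of points leaves out 1 of 32 animals. Reported numbers are 356 and 287, and of the other bars, all except the one without the filter on low counts hold more positive than negative genes. The test against a log2 difference of 1, with 3 more positive and 9 more negative genes, is not drawn.

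In most interaction genes, the diet effect was larger at week 12. By the diet effects at each week (edgeR, adjusted p under 0.01 with no threshold on the size, which 54.2% of all genes tested passed at week 4 and 69.3% at week 12), 290 interaction genes passed at week 12 and not at week 4, and 233 passed at both weeks with the same sign and a larger effect at week 12. These 523 genes are 81.3% of the interaction genes. The share of all genes tested with these forms is not given here, and more of all genes passed at week 12 than at week 4. In 78 genes (12.1%), the effect was smaller at week 12, as 58 genes passed at week 4 and not at week 12 and 20 kept their sign with a smaller effect. The effect turned its sign in 39 genes (6.07%), each with an adjusted p under 0.01 at both weeks, as it did in 126 (0.988%) of all genes tested. The choice of genes by the interaction favors such turns. By the estimates alone, without a call at both weeks, more genes changed sign. Among genes passing at week 12 alone, 66 of the 159 higher on CDAA were lower at week 4, and 55 of the 131 lower were higher. Among genes passing at week 4 alone, 14 of the 21 lower and 21 of the 37 higher on CDAA had the opposite sign at week 12. The share of such changes over all genes tested is not given here. Without animals 303, 504, 908 and 1102, 740 genes had a larger and 88 a smaller effect, and 44 turned their sign.

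The 233 growing genes split into 148 that were lower on CDAA at both weeks and 85 that were higher. Which of these prevailed depended on the fit. With limma-voom, 107 growing genes were lower and 78 higher. Without animals 303, 504, 908 and 1102 the numbers were 95 and 340, and with scaling to the reads on genes alone 35 and 402. They were 91 and 109 with the gene length trend removed, and 99 and 102 with the 32 animals of weeks 4 and 12 alone. In the core of genes that passed in each fit, 29 growing genes were lower and 48 higher. Among the 148 lower genes, the median log2 fold change of CDAA against CSAA went from -1.08 at week 4 through -1.79 at week 8 to -2.36 at week 12. In the 85 higher genes it went from 1.14 through 1.92 to 2.61. Both groups thus had their median at week 8 between those of the other weeks. Of the 290 genes that passed at week 12 and not at week 4, 159 were higher on CDAA at week 12, with median log2 fold changes of 0.12, 1.11 and 1.66 at weeks 4, 8 and 12. The other 131 were lower, with medians of -0.09, -0.58 and -1.34. In these genes the absence of a call at week 4 does not show that the diets were equal at that time.

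In the reported fit, genes whose effect became smaller were mostly higher on CDAA at week 4. This holds for 37 of the 58 genes that passed at week 4 and not at week 12, in which the median log2 fold change went from 1.47 at week 4 to 0.79 at week 8 and -0.08 at week 12. In the other 21 genes it went from -1.15 at week 4 to -0.26 and 0.18. Of the 20 genes that kept their sign with a smaller effect, 17 were higher on CDAA, with medians of 2.60, 1.58 and 1.24 at weeks 4, 8 and 12. The 37 and the 21 genes are the more negative and the more positive ones that passed at week 4 alone. With limma-voom these numbers were 29 and 29, and with scaling to the reads on genes alone 20 and 25, so this majority depended on the fit.

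The sign turned from higher to lower on CDAA in 22 genes and from lower to higher in 17 genes. The median log2 fold change went from 0.65 through -0.07 to -0.62 over weeks 4, 8 and 12 in the former, and from -0.55 through 0.51 to 0.69 in the latter. Few turns were large on both sides of 0, since 2 of the 39 genes differed by 2-fold or more between the diets at both weeks. At week 12 alone, the log2 fold change reached -2.21 in genes turning to lower and 1.76 in genes turning to higher. At week 8, the median of the genes that went up already lay on the side of week 12, whereas the median of the genes that went down was close to 0. Of these 39 genes, 23 belong to the core of 255 genes, 8 turning from higher to lower and 15 from lower to higher. Which turn prevailed depended on the fit. With limma-voom, 22 genes turned from higher to lower and 15 from lower to higher. With scaling to the reads on genes alone, the numbers were 4 and 29.

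**Figure D2:**
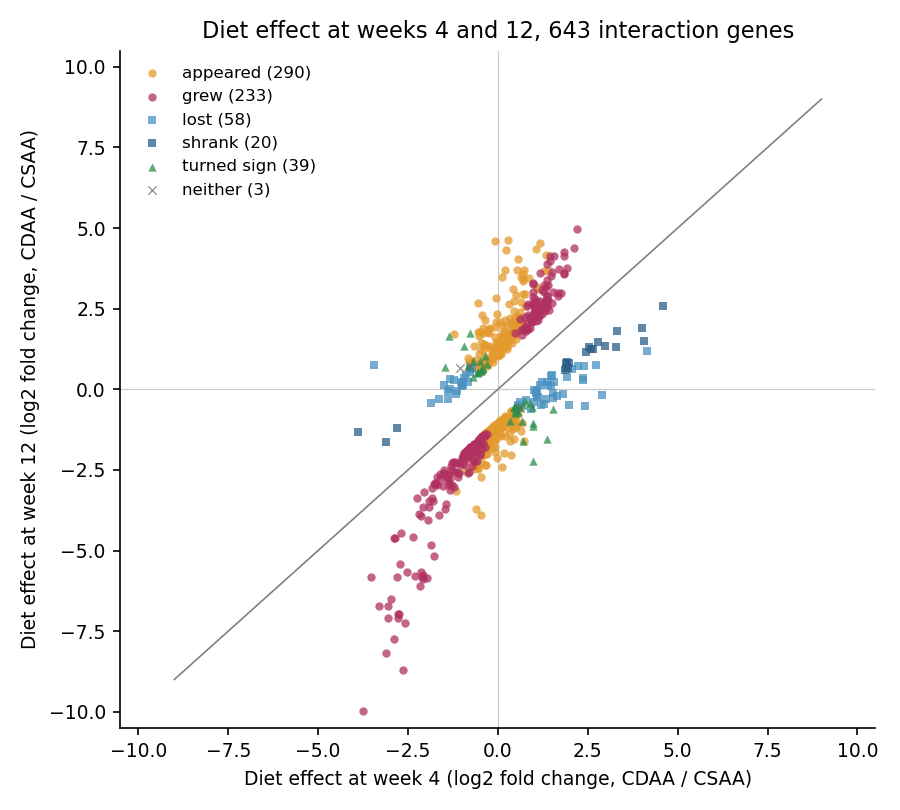
Log2 fold change of CDAA against CSAA at week 4 (horizontal axis) and week 12 (vertical axis) for the 643 interaction genes, 1 point per gene, with color and marker by the form of the change and a diagonal line where both weeks are equal. Genes that appeared (passing at week 12 and not at week 4, 290) or grew (233) lie away from the diagonal towards larger effects at week 12, and the 39 genes that turned their sign lie close to the origin.

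The week 8 animals were not part of the contrast. In 548 of the 643 interaction genes (85.2%) the diet effect at week 8 lay between those of weeks 4 and 12, as it did in 4565 (35.8%) of all genes tested. Interaction genes were chosen for a wide gap between weeks 4 and 12, which leaves more room for a value in between. The effect at week 8 was nearer to that of week 12 than to that of week 4 in 170 of the 287 more positive genes (59.2%). This held for 171 of the 356 more negative genes (48.0%) and 50.9% of all genes tested. These shares are given for the reported fit alone. In it the median log2 diet effect of all genes tested was -0.02, 0.05 and -0.09 at weeks 4, 8 and 12. The part of the scaling in the difference between directions was not tested.

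To see which animals moved, weeks 4 and 12 were compared within each diet. At both thresholds, 1347 genes (10.6%) changed on CDAA and 342 (2.68%) on CSAA with edgeR. On CDAA 948 genes rose and 399 fell, and on CSAA 171 rose and 171 fell. Of the 643 interaction genes, 358 (55.7%) passed on CDAA and not on CSAA, 60 (9.33%) on CSAA and not on CDAA, and 6 on both. In the remaining 219 genes (34.1%) neither diet passed both thresholds. The estimates of the changes had opposite signs in each of these 219 genes and in 432 of the 643 interaction genes (67.2%). Over all genes tested the share with opposite signs was 33.5%. The choice of genes by the interaction favors opposite signs. In the 219 genes, opposite signs follow of necessity where neither change reached 2-fold, since an interaction of 2-fold or more then needs shifts in both directions. Some changes were larger but missed the adjusted p. In the more negative genes of these 219, log2 changes went down to -1.84 on CDAA and up to 1.53 on CSAA. Of the 219 genes, the change passed the adjusted p on CDAA in 153, on CSAA in 101 and on both in 62.

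A gene that passes on 1 diet and not on the other is not thereby shown to move more on that diet. Whether the changes were of unequal size was tested by the sum of the changes on CDAA and CSAA (edgeR, adjusted p under 0.01), which passed in 49.3% of all genes tested. Over all genes the sum also passes for equal changes in 1 direction, so this share is not a share of genes with unequal changes. By this test, the change was larger on CDAA in 318 interaction genes (49.5%), larger on CSAA in 53 (8.24%) and not told apart in 272 (42.3%). Without animals 303, 504, 908 and 1102, the numbers were 434, 63 and 380 of 877 genes. With scaling to the reads on genes alone, they were 618, 48 and 348 of 1014 genes.

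The changes on each diet are given here by direction. The genes were chosen for the difference between these changes, so their medians are a description and were not tested. In the 287 more positive genes, the median log2 change from week 4 to week 12 was 1.49 on CDAA and 0.01 on CSAA. For the same genes it was 1.53 and -0.13 without the 4 animals, 1.83 and -0.04 with scaling to the reads on genes alone, and 1.42 and -0.15 with the gene length trend removed. The change passed both thresholds on CDAA and not on CSAA in 225 of them (78.4%), and by the sum test it was larger on CDAA in 201 and on CSAA in 10. In the 356 more negative genes, the median change was -0.84 on CDAA and 0.50 on CSAA. Over all genes tested the medians were -0.06 on CDAA and 0.07 on CSAA. Among the more negative genes, 133 (37.4%) passed on CDAA and not on CSAA, 45 (12.6%) on CSAA and not on CDAA, and 174 (48.9%) on neither. By the sum test, the change was larger on CDAA in 117 of them, larger on CSAA in 43 and not told apart in 196. Going by the estimates alone, the change was larger on CDAA in 64.3% of the more negative genes, against 61.4% of all genes tested, and in 53.1% against 61.6% with scaling to the reads on genes alone. In the more positive genes it was larger on CDAA in 89.5% and, with that scaling, in 93.0%. Both changes passed the adjusted p with opposite signs in 71 of the 356 genes. The medians of the same 356 genes were -0.73 on CDAA and 0.49 on CSAA without the 4 animals, -0.47 and 0.44 with scaling to the reads on genes alone, and -0.64 and 0.57 with the gene length trend removed. A fall on CDAA and a rise on CSAA are both favored by the choice of these genes.

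The diet that moved was also counted by the form of the change. Among the growing genes, 145 of 233 (62.2%) passed both thresholds on CDAA and not on CSAA, and 9 on CSAA and not on CDAA. Among the genes whose effect became smaller but kept its sign, 10 of 20 passed on CSAA and not on CDAA. Of the 58 genes that passed at week 4 and not at week 12, 20 passed on CDAA and not on CSAA and 16 on CSAA and not on CDAA. In the 17 genes higher on CDAA with a smaller effect at week 12, the median change was 1.08 on CSAA and -0.49 on CDAA. By these medians the levels moved towards each other from both sides. Of the 17 genes, 8 passed on CSAA and not on CDAA, 2 on CDAA and not on CSAA, and 7 on neither. In the 37 genes that were higher on CDAA at week 4 and no longer passed at week 12, the median change was 0.96 on CSAA and -0.59 on CDAA. No test of the difference between these forms was made.

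**Figure D3:**
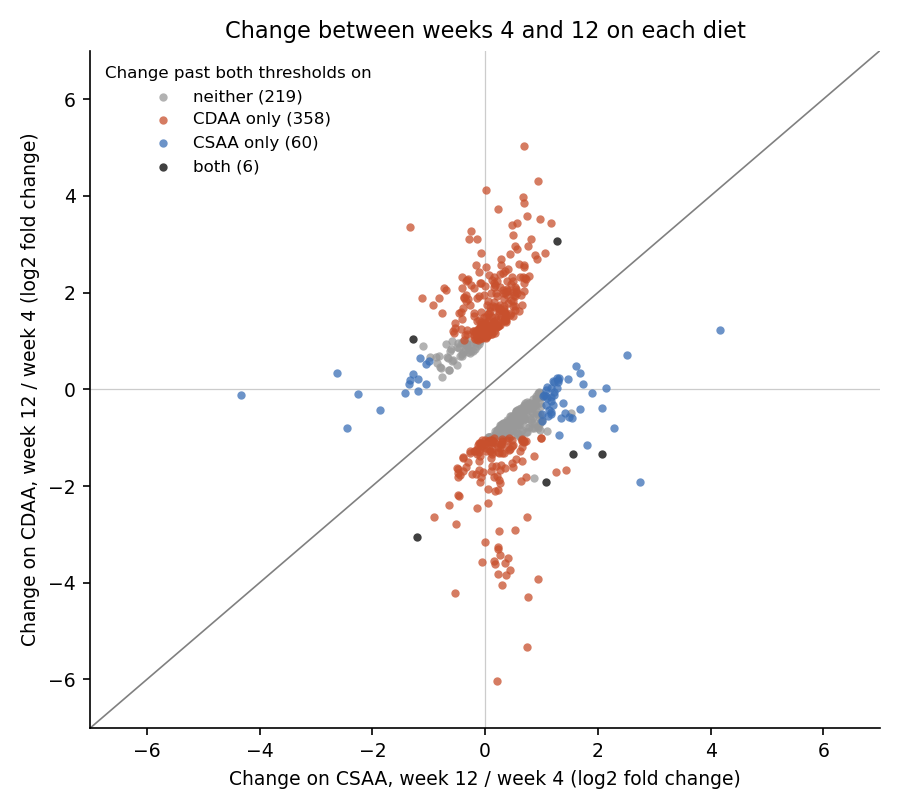
Log2 change from week 4 to week 12 on CSAA (horizontal axis) and on CDAA (vertical axis) for the 643 interaction genes, 1 point per gene, with a diagonal where the changes are equal. Red points passed both thresholds on CDAA and not on CSAA (358), and blue points on CSAA and not on CDAA (60). Black points passed on both (6) and gray points on neither (219). The gray points lie mostly near the origin and at least 1 log2 unit off the diagonal. They show a fall on CDAA and a rise on CSAA or the reverse.

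The overlap between single animals of weeks 4 and 12 is given for the same genes as a description. The CDAA animals of weeks 4 and 12 did not overlap in 341 interaction genes (53.03%, against 27.6% of all genes tested), and the CSAA animals in 36 (5.60%, against 5.28%). In the more positive genes the numbers were 217 of 287 on CDAA and 3 on CSAA, and in the more negative genes 124 and 33 of 356. Over all interaction genes, the share of CSAA was thus close to that of all genes tested. By direction it was not, with 1.05% of the more positive and 9.27% of the more negative genes. In 264 of the more positive genes the CDAA animals of week 12 had the highest mean CPM of the 4 groups, and in 279 of the more negative genes they had the lowest, against 31.9% and 38.6% of all genes tested. In 245 of the 356 more negative genes, the CSAA animals of week 12 had the highest mean, against 27.2% of all genes tested. The choice of the genes by the interaction used the same animals. It favors these orders as well as animals of weeks 4 and 12 that do not overlap.

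A mean over the genes of each direction was calculated for every animal, as log2 of CPM plus 0.5 relative to the mean of CSAA at week 4. It describes the chosen genes and was not tested. Over the 287 more positive genes, CSAA animals were between -0.11 and 0.08 (median 0.01) at week 4 and between -0.32 and 0.37 (median -0.13) at week 12. CDAA animals were between -0.19 and 0.34 (median 0.21) at week 4, between 0.78 and 1.12 (median 0.87) at week 8 and between 1.03 and 1.66 (median 1.56) at week 12. All CDAA animals of weeks 8 and 12 lay above those of week 4, and weeks 8 and 12 overlapped. The lowest at week 4 was animal 303, with the next at 0.18, and the lowest at week 12 was animal 1102, with the next at 1.18. The highest CSAA animal at week 12 was animal 908, with the next at 0.07.

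Over the 356 more negative genes, CDAA animals were between -0.56 and 0.27 (median -0.38) at week 4, between -0.94 and -0.55 (median -0.78) at week 8 and between -1.30 and -0.75 (median -1.15) at week 12. CSAA animals were between -0.14 and 0.19 (median -0.01) at week 4, between 0.02 and 0.30 (median 0.18) at week 8 and between 0.24 and 0.75 (median 0.47) at week 12. All 8 CSAA animals of week 12 lay above all 8 of week 4, and the CSAA animals of week 8 overlapped with both. Animal 303 was the highest CDAA animal of week 4, with the next at -0.20, and lay above all CSAA animals of that week.

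**Figure D4:**
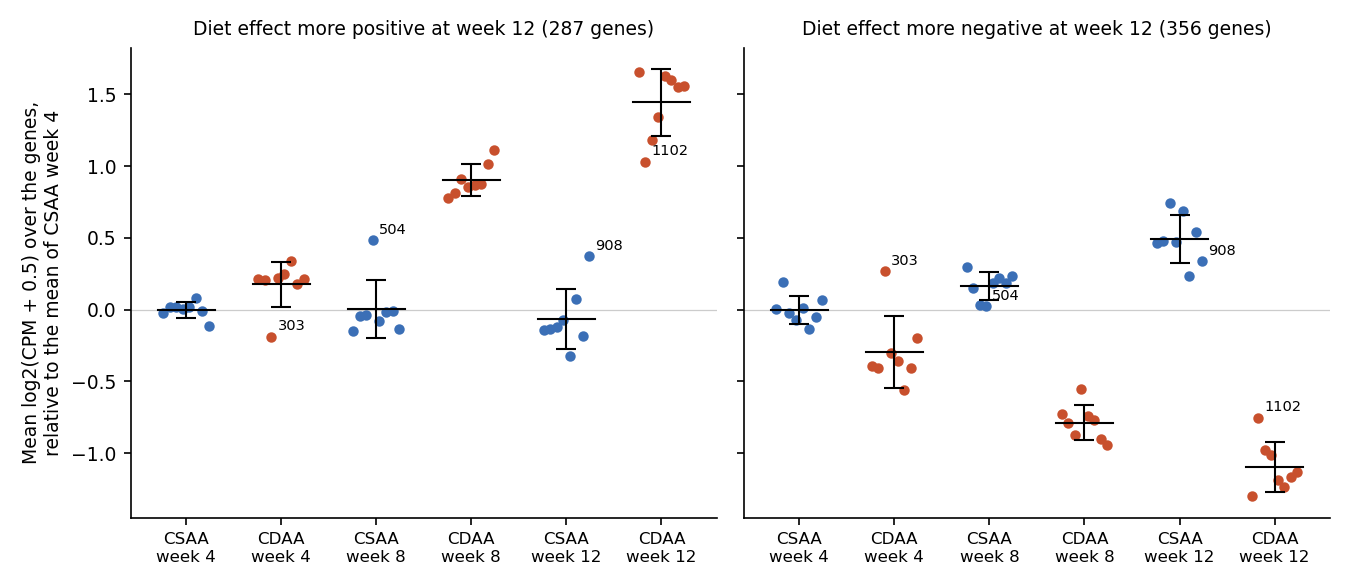
Mean log2(CPM + 0.5) over the 287 more positive (left) and 356 more negative (right) interaction genes, relative to CSAA at week 4 (vertical axis), for each animal of the 6 groups, with the mean and SD of each group (n = 8). On the left CDAA animals rise from a median of 0.21 to 1.56 while CSAA animals stay around 0, and on the right the diets move apart, to medians of -1.15 on CDAA and 0.47 on CSAA at week 12. Animals 303, 504, 908 and 1102 are marked.

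The directions also differed in level. The median level per length, as mean CPM per kb over all animals, was 0.949 in the more positive genes and 21.3 in the more negative genes, against 5.77 in all genes tested. With the genes tested divided into 4 equal bins of level per length, 6.37% of the lowest bin were more positive and 1.69% more negative, and in the highest bin the shares were 0.0941% and 5.90%. The more positive genes therefore rest on fewer reads, with a median of 49.1 reads per animal against 674 in the more negative genes. The filter on low counts needed 1 CPM in enough animals of any group. A gene low elsewhere could thus enter through CDAA at week 12 alone, with a low mean level and a more positive effect. Entry through CDAA at week 4 or CSAA at week 12 alone would favor a more negative effect. The part of the filter in the difference in level was not tested. As a share of all reads on genes, the 287 more positive genes took 0.118% ± 0.0130 (SD, n = 8) on CSAA and 0.155% ± 0.0310 on CDAA at week 4, and 0.110% ± 0.0311 on CSAA and 0.538% ± 0.0980 on CDAA at week 12. The 356 more negative genes took 11.6% ± 0.697 (SD, n = 8) on CSAA and 9.98% ± 1.31 on CDAA at week 4. At week 12 they took 14.04% ± 1.46 on CSAA and 7.29% ± 0.594 on CDAA.

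The length of the genes, derived from counts and RPKM, moved with the direction as well. Of 4 equal bins of length, in the bin of shortest genes (up to 1493 bases) 1.35% were more positive and 3.73% more negative, and in the bin of longest genes (from 3443 bases) 3.83% and 1.47%. With each animal's trend of the counts on gene length removed, 376 genes were more positive and 214 more negative. The part of RNA quality or library preparation in this was not tested.

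By the rule for identifiers without names, the 2 with the largest interaction in each direction were taken among genes that also passed with limma-voom and without the 4 animals and that reached a group mean of at least 5 CPM, which left 323 genes. ENSRNOG00000008346 had the largest positive interaction. On CSAA, its values were between 0.305 and 0.922 CPM (median 0.723) at week 4 and between 0.180 and 2.78 CPM (median 0.772) at week 12. On CDAA, they were between 1.16 and 2.72 CPM (median 1.73) at week 4, between 2.78 and 11.2 CPM (median 4.58) at week 8 and between 6.83 and 23.003 CPM (median 20.6) at week 12. The diets did not overlap at weeks 4 and 12, and the CDAA animals of week 12 lay above those of week 4 without overlap while the CSAA animals of both weeks overlapped. The log2 fold change between the diets was 1.46 ± 0.41 (SE) at week 4 and 4.14 ± 0.37 at week 12, with an interaction of 2.68 ± 0.57 (SE, edgeR adjusted p = 0.000259). The log2 change from week 4 to week 12 was 3.18 ± 0.34 (SE) on CDAA and 0.50 ± 0.45 on CSAA, and it was larger on CDAA by the sum test (edgeR adjusted p = 2.59e-07).

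ENSRNOG00000053448, the other identifier with a more positive effect, was lower on CDAA and came closer to CSAA with time. On CSAA, its values were between 4.07 and 18.7 CPM (median 9.22) at week 4 and between 4.61 and 14.6 CPM (median 7.18) at week 12. On CDAA, they were between 0.154 and 1.77 CPM (median 0.610) at week 4, between 1.26 and 12.1 CPM (median 3.09) at week 8 and between 1.86 and 4.91 CPM (median 2.84) at week 12. All CDAA animals of week 12 lay above all of week 4, and at week 4 the diets did not overlap, whereas at week 12 their ranges met between 4.61 and 4.91 CPM. The log2 fold change between the diets was -3.90 ± 0.40 (SE) at week 4 and -1.43 ± 0.33 at week 8, and -1.33 ± 0.33 after 12 weeks, so that most of the difference between weeks 4 and 12 was present at week 8. The interaction was 2.57 ± 0.52 (SE, edgeR adjusted p = 0.000135), with a log2 change of 2.23 ± 0.40 on CDAA and -0.34 ± 0.32 on CSAA.

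ENSRNOG00000051118 had the largest negative interaction among these genes. On CSAA, its values were between 54.6 and 205 CPM (median 106) at week 4 and between 64.3 and 329 CPM (median 125) at week 12. On CDAA, they were between 2.21 and 96.3 CPM (median 4.38) at week 4, between 0.545 and 5.93 CPM (median 2.03) at week 8 and between 0.208 and 6.01 CPM (median 0.457) at week 12. At week 4 the value of animal 303 lay within the CSAA range and the next CDAA animal was at 18.7 CPM, and at week 12 animal 1102 had the highest value and the next was at 1.36 CPM. The log2 fold change between the diets was -2.74 ± 0.57 (SE) at week 4 and -6.97 ± 0.72 at week 12, and the interaction was -4.23 ± 0.85 (SE, edgeR adjusted p = 0.000135). The size depended on single animals, as the interaction was -2.74 without animal 303 and -5.39 without animal 1102, with an adjusted p (edgeR) of at most 0.00139 over all 32 animals left out in turn. The log2 change was -3.85 ± 0.67 (SE) on CDAA and 0.38 ± 0.53 on CSAA.

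ENSRNOG00000029223 followed the same course at a lower level. On CSAA, its values were between 4.56 and 11.0 CPM (median 5.15) at week 4 and between 5.76 and 13.9 CPM (median 8.82) at week 12. On CDAA, they were between 0.255 and 4.87 CPM (median 0.452) at week 4, between 0 and 0.565 CPM (median 0.116) at week 8 and between 0 and 0.139 CPM (median 0.0722) at week 12. The diets did not overlap at week 12, and at week 4 animal 303 was the single CDAA animal within the CSAA range, with the next at 0.665 CPM. The value on CDAA at week 12 comes from 14 reads in 8 animals, with 1 animal at 0 reads and at most 4 reads in any, so that the size of the fold change is uncertain there. The log2 fold change between the diets was -2.77 ± 0.41 (SE) at week 4 and -4.52 ± 0.51 at week 8, with -6.96 ± 0.56 after 12 weeks, and the interaction was -4.19 ± 0.74 (SE, edgeR adjusted p = 2.12e-05). Without animal 303 the interaction was -3.10. The log2 change was -3.74 ± 0.64 (SE) on CDAA and 0.45 ± 0.36 on CSAA.

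**Figure D5:**
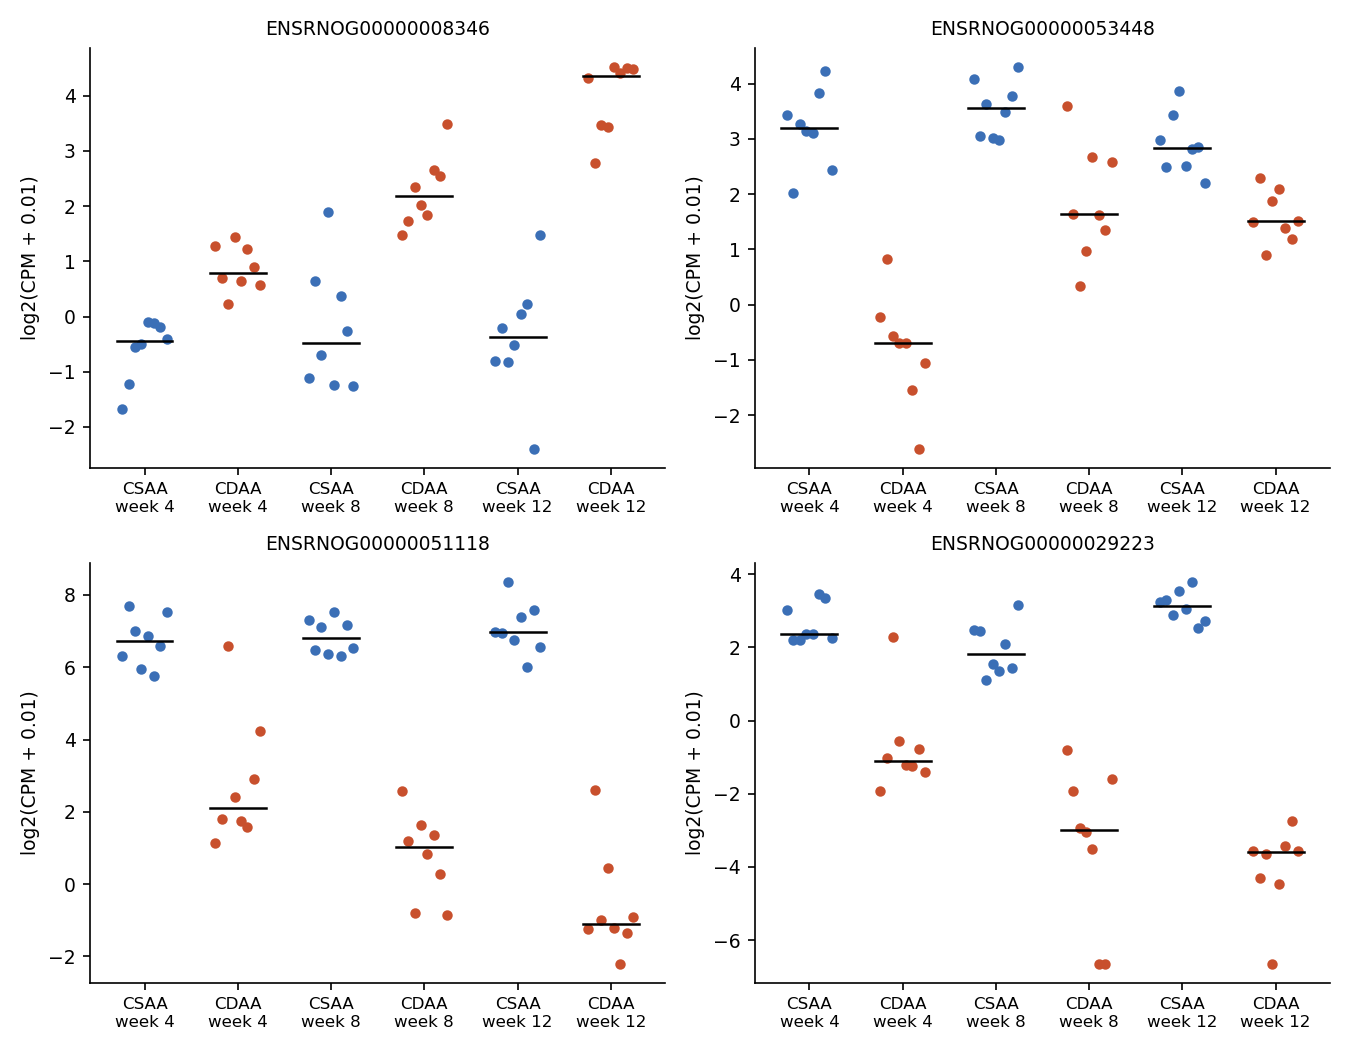
log2(CPM + 0.01) of the 4 identifiers (vertical axes) in each animal of the 6 groups (n = 8, bars are medians), with CSAA in blue and CDAA in red. CDAA animals of week 12 lie above those of week 4 in the upper panels, with a median at week 8 slightly above that of week 12 in the right one (3.09 against 2.84 CPM for ENSRNOG00000053448). The CDAA medians fall from week to week in the lower panels, where 1 CDAA animal of week 4 lies at the level of CSAA. The CSAA medians of the 3 weeks lie closer to each other than the CDAA medians in each panel.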

How the data were processed

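Single-end reads of 48 livers were aligned by the authors to Rnor_6.0 (annotation of Ensembl) with STAR, counted per gene with featureCounts, and deposited as raw counts. Gene lengths were derived here from RPKM values, which the authors likewise deposited. Columns were assigned to animals by name and 0 were left over. The members of the comparison, the alternatives and the gene rules were chosen with earlier results of these data known.

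Tests used edgeR 4.0.16 under R 4.3.3 (TMM, quasi-likelihood, Benjamini-Hochberg adjustment) with a coefficient for each diet and week, on genes that reached 1 CPM in 5 or more animals of any group of 8. A call needed an adjusted p under 0.01 and a log2 difference of 1 or more in size, the thresholds of the study. SE is the log2 difference divided by the root of F. The tests were checked on simulated counts. Depth was at least 13619274 reads per animal, so the spread between animals limits the precision of most genes. No batch is named in the labels, and none was modelled. The identifiers named are the 2 with the largest interaction in each direction that passed with edgeR, with limma-voom and without animals 303, 504, 908 and 1102, with a highest group mean of at least 5 CPM.

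Alternatives were limma-voom (limma 3.58.1, the method of the study), quality weights, DESeq2 1.42.0 with no independent filtering, RLE factors, reads on genes alone, no filter, the 32 animals of weeks 4 and 12, a test against the fold threshold, removal of the gene length trend (lowess, span 0.3), and leaving out animals. The interaction relative to the median of all genes was added after the data were seen. Gene names, gene lists, cell type markers and promoters were not analysed here, since no table used here pairs the identifiers with names.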

Additional observations from a re-analysis of the deposited data

Results flagged for a closer look

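In 60 groups of 8 values, 19 values stood apart from the rest by their gap to the nearest animal (Dixon's test at 95%), where chance gives about 3 in 60, and the values are not independent of each other. Animal 303 (CDAA, week 4) accounts for 7 of them. Its TMM factor was 0.827, against at least 1.04 in the others of its group, and it had 15257 genes with reads, against at least 15767. Its mean r with its own group minus that with the other diet was -0.0203. Its mean over the more positive interaction genes was -0.19 and over the more negative genes 0.27 on the log2 scale. It had 96.3 CPM of ENSRNOG00000051118 and 4.87 CPM of ENSRNOG00000029223, the highest of its group in both.

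Animal 504 (CSAA, week 8) had a TMM factor of 1.01, a difference of mean r of 0.0183, a mean of 0.49 over the more positive genes and 3.70 CPM of ENSRNOG00000008346. Animal 908 (CSAA, week 12) had a difference of mean r of 0.0285 and 2.78 CPM of ENSRNOG00000008346. Animal 1102 (CDAA, week 12) had a TMM factor of 1.27 and 6.01 CPM of ENSRNOG00000051118. Animal 102 (CSAA, week 4) had a difference of mean r of 0.0391. Animal 708 (CDAA, week 8) had 11.2 CPM of ENSRNOG00000008346, and animals 302 (CDAA, week 4) and 701 (CDAA, week 8) had 1.77 and 12.1 CPM of ENSRNOG00000053448.

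The 4 identifiers were chosen for the size of their interaction, so the difference between weeks is a description. Their log2 interactions were 2.68 for ENSRNOG00000008346, 2.57 for ENSRNOG00000053448, -4.23 for ENSRNOG00000051118 and -4.19 for ENSRNOG00000029223.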

How the results depend on the processing

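The interaction numbers depended on scaling, threshold and animals. With scaling to the reads on genes alone, 1014 genes were called (918 more positive and 96 more negative), 921 had a larger effect at week 12, 681 passed on CDAA and not on CSAA, and 618 changed more on CDAA. Relative to the median of all genes, chosen after the data were seen, that scaling gave 497 more positive and 169 more negative genes. Tested against a log2 difference of 1, 12 genes passed, 3 more positive and 9 more negative. DESeq2 gave 468 more positive genes, the fit without animals 303, 504, 908 and 1102 gave 620, and removal of the gene length trend gave 214 more negative genes. The cause of these shifts was not tested. With each of 32 animals left out, the number of interaction genes was between 540 (without animal 303) and 837 (without animal 908), with 260 to 469 more positive and 280 to 391 more negative, and more negative than positive genes in 31 of the 32 fits. A larger effect at week 12 was found in 394 to 722 genes, a smaller in 64 to 101, and 32 to 58 turned sign. Between 285 and 479 passed on CDAA and not on CSAA, 50 to 85 on CSAA and not on CDAA, and 173 to 272 on neither. By the sum test, 247 to 389 changed more on CDAA, 43 to 74 more on CSAA and 227 to 403 were not told apart. Changes within a diet numbered 1108 to 1452 on CDAA and 305 to 430 on CSAA. The 4 identifiers passed in the same direction under each of 38 alternatives run on them, 32 of which left out 1 animal. Not every alternative was run on them. Passing with limma-voom and without animals 303, 504, 908 and 1102 was a condition of their choice, so those fits could not fail. No paired analysis was possible because animals of different groups share no number. Genes with few reads, which prevail among the more positive genes, have the least certain fold changes.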
